A study of Mus musculus with 8 samples.

Results

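The antioxidant and glutathione genes of mouse MII oocytes were followed in total and in ribosome-bound mRNA. Genes were taken by symbol from the families of superoxide dismutase, catalase, peroxiredoxin, glutathione peroxidase, thioredoxin, glutaredoxin, glutathione synthesis, glutathione transferase and methionine sulfoxide reductase, together with NADPH and quinone enzymes, sestrins and the regulator Nfe2l2. The symbols matched 39 genes in the table of ribosome-bound mRNA and 41 genes in the table of total mRNA, and the 36 genes present in both, of 8537 such genes, are the members described here. Of the 36 members, 27 reached 10 CPM (counts scaled for sequencing depth by the authors) in at least 2 input libraries, 24 did so in at least 2 HA libraries and 22 did so in both tables. Gpx1, Gpx4, Prdx4, Prdx5, Srxn1, Txnrd2, Txnip, Gss, G6pdx, Idh2, Hmox2, Keap1, Sesn2 and Sod3 were not analysed here.

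The females were RiboTagF/F;Zp3-Cre mice on a C57BL/6 background, so old and young groups both carry the tag. In these animals, Cre driven by the Zp3 promoter in growing oocytes recombines the Rpl22 gene, and the oocyte ribosomes then carry an HA epitope that an antibody can pull down. Young females were 1 month old, and old females were retired breeders of 12 to 15 months. All were given 5 IU PMSG followed after 48 h by 10 IU hCG, and MII oocytes, which are arrested before fertilisation, were taken 13 h after hCG. Each of the 4 pools (2 per age) held 200 oocytes, with HA immunoprecipitation for ribosome-bound mRNA done on the pre-cleared lysate after 10% of it was set aside as input (total mRNA), which gave 8 libraries. Pools are named by age and replicate number, and values are given with replicate 1 first.

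As background, oocytes hold large stores of reduced glutathione, a tripeptide that buffers peroxides and is needed after fertilisation to unpack the sperm nucleus. Superoxide dismutases turn superoxide into hydrogen peroxide, which catalase, peroxiredoxins and glutathione peroxidases remove. Peroxiredoxins are recharged by thioredoxin and thioredoxin reductase, and glutathione peroxidases and glutaredoxins by glutathione and glutathione reductase, both with electrons from NADPH. The transcription factor NFE2L2 (NRF2) drives many of these genes in somatic cells, but the MII oocyte is transcriptionally silent, so its mRNA levels depend on stored transcripts and their decay, and protein output on translation.

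Reads counted on genes ranged from 38276453 to 60052814 in the input libraries and from 37817382 to 59688578 in the HA libraries. The median member had 1016 to 1806 reads in an input library and 354 to 1684 reads in an HA library. The limit that a count of 0 allows, 3 reads, was worth 0.0435 to 0.0788 CPM in input and 0.0388 to 0.111 CPM in HA (the floor below), and reads without molecular identifiers make such floors and intervals a measure of counting error only. All 12 oocyte markers were present, with summed levels of 9856 to 18607 CPM. Of 15 cumulus and granulosa cell markers, 5 were in the HA table and 10 in the input table, and none of these was at 0 in any library. Their sum was 144 and 100.1 CPM in the old and 199 and 209 CPM in the young HA libraries, with Cyp19a1 (aromatase) the most abundant of them, and 157 and 431 CPM in the old and 208 and 309.8 CPM in the young input libraries. None of 8 blood and immune markers was in either table, and of 5 oviduct markers Epcam alone was in the input table, at 57.6 CPM in old replicate 1 and at 0.0581 to 3.29 CPM in the others.

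**Figure D1:**
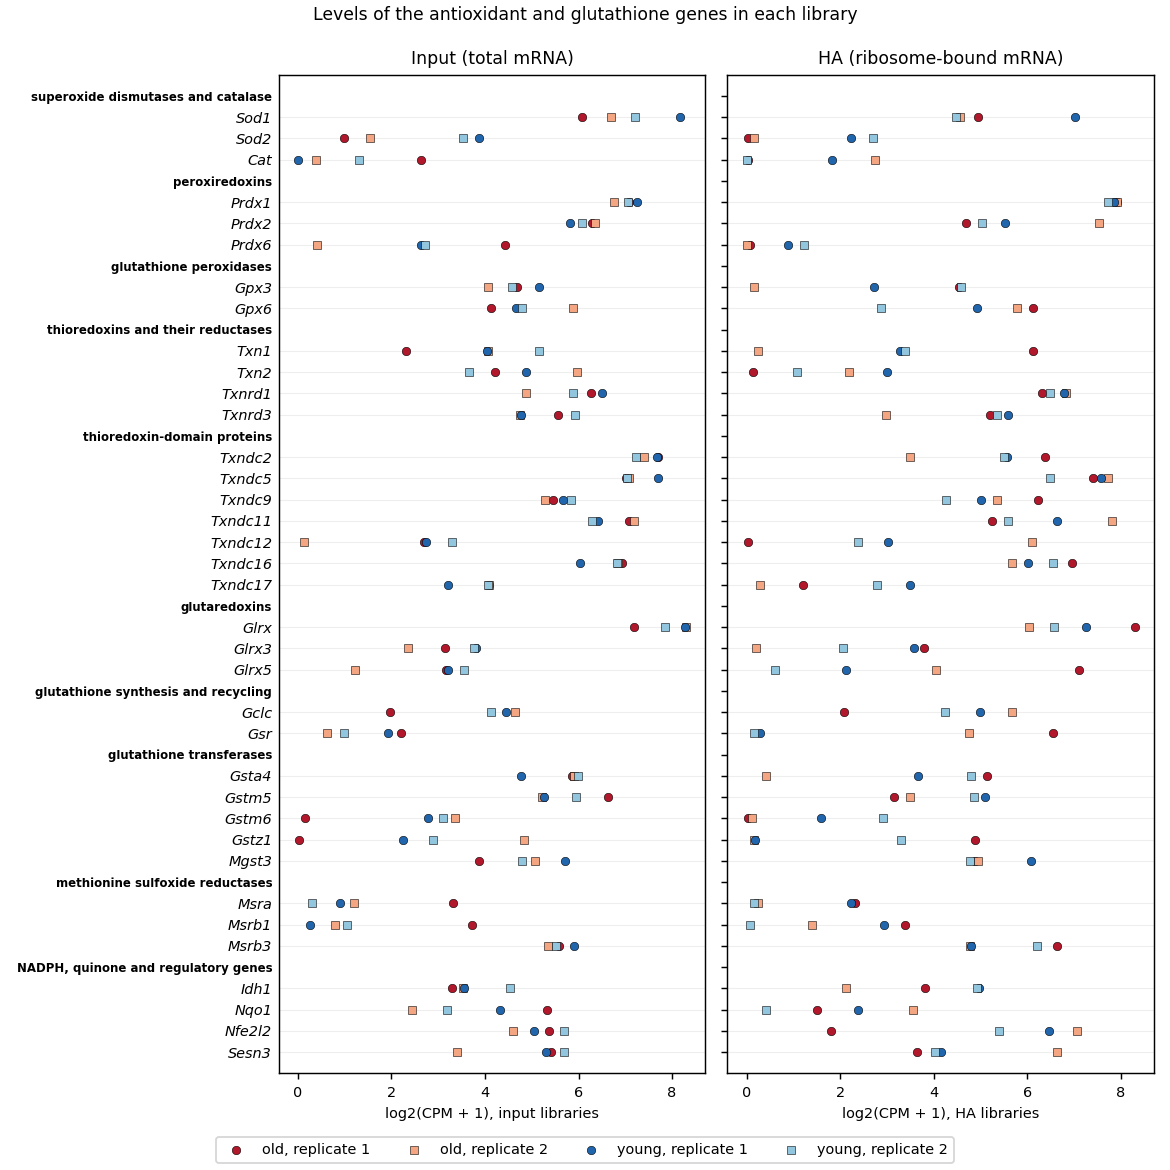
Levels of the 36 members in each library, grouped by role, on a log2(CPM + 1) axis, with input on the left and HA on the right. Each point is a pool. Points of the 2 old pools (red and orange) lie far apart for many genes in HA, such as Txn1 at 68.8 and 0.185 CPM, and close together for Prdx1.

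Per length, the most abundant members in total mRNA were a thioredoxin of the germ line, a glutaredoxin and a glutathione transferase. The mean input level was 91.7 CPM per kilobase of exon for Txndc2, a thioredoxin-domain protein known from sperm, 45.4 for Glrx, which reduces glutathionylated proteins, and 45.4 for Gstm5. Prdx1, the cytosolic peroxiredoxin, had 43.4, Gsta4, which conjugates lipid aldehydes to glutathione, had 40.3, and Sod1, the cytosolic superoxide dismutase, had 37.9 CPM per kilobase. Txndc5 (a disulfide isomerase of the endoplasmic reticulum), Mgst3, Prdx2 and Gpx6 followed with 33.4, 28.4, 23.0 and 22.9. The median member had 9.28 CPM per kilobase, against 4.51 for all genes of the input table. With the length of the longest protein-coding transcript in place of all annotated exons, a choice made after seeing the data, Sod1 was first with 235 CPM per kilobase and Glrx second with 186.

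In ribosome-bound mRNA, Prdx1 was first per kilobase of exon. Its mean HA level was 75.9 CPM per kilobase of exon, with 69.5 to 79.3 over the 4 pools. Txndc5 had 36.7, Mgst3 34.5, Gpx6 29.0 and Glrx 28.5, while Txndc2 was seventh with 23.1 CPM per kilobase. The old and young pools of Txndc5, Mgst3, Glrx and Txndc2 overlapped, and Glrx ran from 11.8 to 57.3 CPM per kilobase of exon. Gpx6 had 50.3 and 39.5 in old and 21.6 and 4.59 in young pools, without overlap. Its log2 HA difference was 2.06 (SE 1.12, adjusted p = 0.480, limma). At the other end, Sod2, the mitochondrial superoxide dismutase, had 0.675 CPM per kilobase in input and 0.233 in HA, and Cat (catalase), the peroxisomal enzyme, had 0.665 and 0.795. Cat had 0 reads in young replicate 1 input and in young replicate 2 HA, the latter allowing up to 0.0529 CPM.

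For total mRNA, old and young oocytes were compared to ask whether the stores of these transcripts differ with maternal age. Both superoxide dismutases were lower in old than in young pools, and no other member had an unadjusted p under 0.05. Sod1 input was at 66.0 and 102 CPM in the old pools and at 287 and 147 CPM in the young pools. The ages did not overlap, although the young pools differed from each other by a larger factor than the nearest old and young pool. The old pools averaged 84.1 ± 25.6 CPM (SD, n = 2), and the young pools averaged 217 ± 99.4 CPM (SD, n = 2). The log2 difference was -1.31 (SE 0.42, unadjusted p = 0.0141, adjusted p = 0.778, limma). Sod2 input was at 0.974 and 1.93 CPM in old pools (53 and 96 reads) and at 13.6 and 10.5 CPM in young pools (935 and 401 reads). Here the pools of each age lay close together and far from the other age. The log2 difference of Sod2 was -2.43 (SE 0.99, unadjusted p = 0.0376, adjusted p = 0.778, limma). The methods describe the 2 pools of an age as biologically independent samples of a single experiment, so p-values measure the spread between these pools within that experiment, and an exact permutation test of 2 against 2 pools cannot go below p = 0.333. In bulk libraries of this kind, fewer oocytes with a transcript and less of it per oocyte cannot be told apart.

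None of the 36 members had an adjusted p under 0.05 in input (limma, both edgeR tests and DESeq2), where 0.00950% of all 10530 genes did. At an unadjusted p under 0.05 in limma there were 2 members, both lower in old oocytes, where 3.48% of all genes were lower and 2.71% higher, so that the members' share of 5.56% was close to the 6.18% of all genes in either direction. The members' log2 differences ran from -2.43 to 1.65, 23 of 36 were below 0, and the median was -0.25 against -0.03 for all genes. Both old pools lay above both young pools for 5 members and below for 7, or 13.9% and 19.4%, beside 16.4% and 18.9% of all genes. With libraries rescaled to the same sum, the medians were -0.43 and -0.19, and the split over all genes went from 285 higher and 366 lower to 179 and 537. The number of members at an unadjusted p under 0.05 was 4 without old replicate 1, 9 without old replicate 2, 0 without young replicate 1 and 1 without young replicate 2. The unadjusted p of Sod1 passed 0.05 without young replicate 1 (-0.83, SE 0.51) or without old replicate 1. That of Sod2 did so without old replicate 1 (-2.15, SE 1.07), young replicate 1 (-2.26, SE 1.19) or young replicate 2 (-2.60, SE 1.24).

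The other roles had no member at an unadjusted p under 0.05 in input. Among the peroxide-removing genes, Prdx1 was at 135 and 107 CPM in old and 152 and 133 CPM in young pools, a log2 difference of -0.24 (SE 0.33). Prdx2, its relative in the cytosol, was at 77.5 and 80.9 CPM in old and 55.4 and 66.6 CPM in young pools (0.38, interval -0.54 to 1.30). Txndc2 was also close, at 206 and 169 CPM in old and 205 and 149 CPM in young pools (0.09, interval -0.63 to 0.82). The 95% intervals of all 3 included 0. Gclc, the catalytic subunit of the enzyme that limits glutathione synthesis, was at 2.90 and 24.1 CPM in old and 20.8 and 16.4 CPM in young pools. Its old pools fell on both sides of the young ones.

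For ribosome-bound mRNA, 5 members had an unadjusted p under 0.05 between old and young oocytes. Gsr and Glrx5 were higher in old oocytes, and Sod2, Gstm6 and Prdx6 were lower. Gsr (ENSMUSG00000031584.16, chromosome 8 of GRCm38, 33652523 to 33698163, plus strand) encodes glutathione reductase, which turns oxidised glutathione back into its reduced form. Its HA level was 92.6 and 26.1 CPM in the old pools (3897 and 705 reads) and 0.220 and 0.106 CPM in the young pools (17 and 6 reads). Both old HA values lay far above both young ones. Gsr input did not separate the ages, at 3.62 and 0.542 CPM in old and 2.80 and 0.972 CPM in young pools. Both young HA libraries were under 1 CPM, so the place of Gsr in the HA table rests on the old libraries. A higher old level was thus fixed by the filter on low genes, and the HA differences of Gsr and their p-values are given as a description. The log2 HA difference was 5.44 (95% interval 1.86 to 9.02, unadjusted p = 0.00905, adjusted p = 0.297, limma). It was 5.11 to 5.59 under 3 other scalings of the libraries, and 5.51 (SE 2.51) without young replicate 1 and 5.37 (SE 2.90) without young replicate 2, where its unadjusted p was above 0.05. Tests on the recovered reads gave an adjusted p of 0.0370 in edgeR's likelihood ratio test and 1.49e-10 in DESeq2. Reads were counted over whole gene spans, so intronic reads are included, and the span of Gsr holds a small nucleolar RNA gene.

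Glrx5 (ENSMUSG00000021102.3, chromosome 12, 105032688 to 105042906, plus strand) encodes the mitochondrial glutaredoxin that passes on iron-sulfur clusters. In HA it was at 137 and 15.5 CPM in old (5751 and 420 reads) and 3.37 and 0.529 CPM in young pools (261 and 30 reads). The ages did not overlap, but the old pools differed from each other by a factor larger than that between the lower old and the higher young pool. In input the order was the opposite, with 7.94 and 1.34 CPM in old and 8.24 and 10.8 CPM in young pools. With young replicate 2 at 0.529 CPM, the place of Glrx5 in the HA table rests at least in part on the old libraries. A higher old level was thus favoured by the filter, and the test is given as a description. The log2 HA difference was 4.20 (SE 1.69, unadjusted p = 0.0428, adjusted p = 0.328, limma). It was 2.68 (SE 1.37) without old replicate 1, 4.96 (SE 2.72) without young replicate 1 and 3.45 (SE 2.59) without young replicate 2, each with an unadjusted p above 0.05.

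The 3 members lower in old HA libraries at an unadjusted p under 0.05 had no more than 3 reads in any of them. Their place in the HA table thus rests on the young libraries, so that a higher young level was fixed by the filter, and their ratios are given as a description. Sod2 (ENSMUSG00000006818.4, chromosome 17, 13006846 to 13040063, plus strand) was covered by 1 and 3 HA reads in the old pools, and by 286 and 312 in the young. Pooled over replicates, its young HA level was 77.1 times the old one (95% counting interval 30.0 to 284). Gstm6, a glutathione transferase, had 1 and 2 reads in old and 154 and 369 in young pools, a ratio of 89.9 (30.6 to 437). Prdx6, the peroxiredoxin that uses glutathione, had 2 and 0 reads in old and 66 and 76 in young pools, a ratio of 36.6 (9.95 to 305). On the log2(CPM + 1) scale, which understates changes of low genes, the differences were -2.37 for Sod2, -2.18 for Gstm6 and -1.02 for Prdx6 (adjusted p = 0.297, 0.297 and 0.320, limma). In input the 3 genes did not go the same way, since Sod2 was lower in both old pools, whereas Gstm6 (0.110 and 9.23 CPM in old, 5.86 and 7.60 CPM in young) and Prdx6 (20.6 and 0.321 CPM in old, 5.17 and 5.55 CPM in young) had 1 old pool above and 1 below the young ones. After quantile normalization the differences were -1.20 (SE 0.89), -1.13 (SE 0.88) and -0.21 (SE 0.58), and there, and without old replicate 1 or old replicate 2, their unadjusted p was above 0.05. Without young replicate 2 the differences were -2.14 for Sod2, -1.51 for Gstm6 and -0.86 for Prdx6, against the lone young library left.

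**Figure D2:**
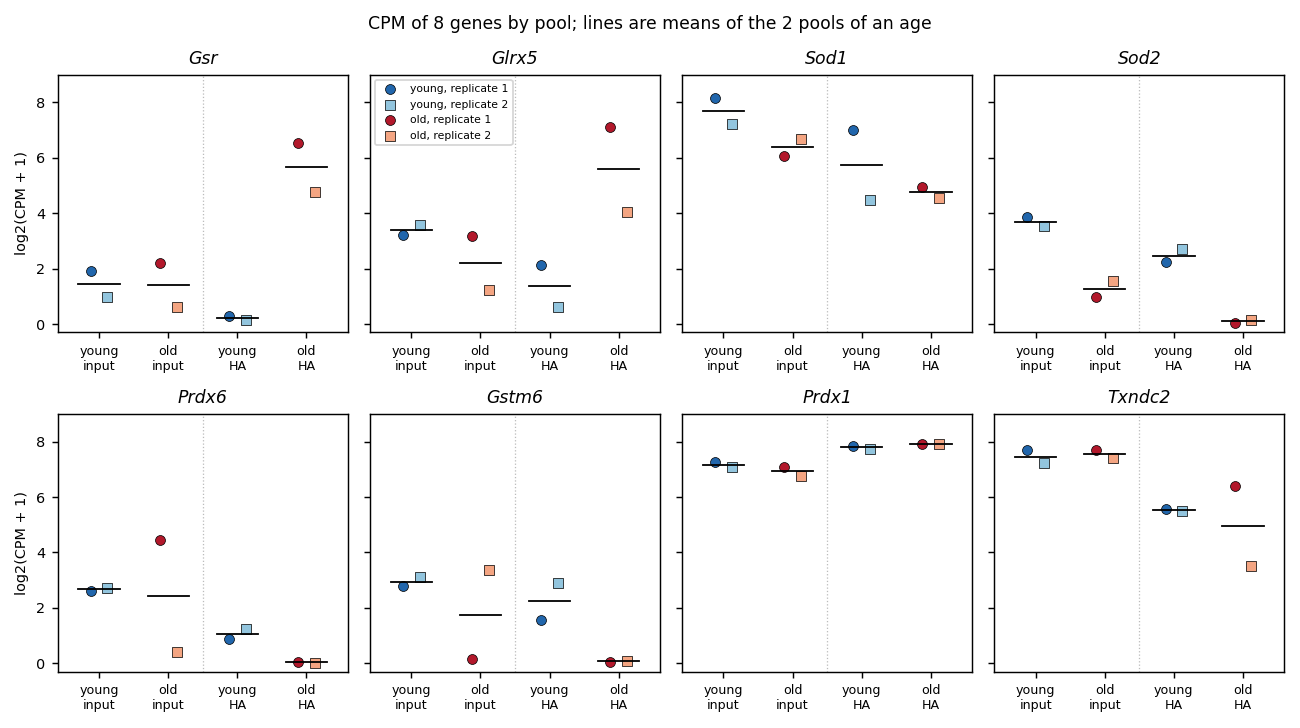
Levels of 8 members on a log2(CPM + 1) axis, with a point for each pool and a line for the mean of the 2 pools of an age, in input (left of the dotted line) and HA (right). For Gsr and Glrx5 the old HA points lie above the young ones, without such an order in input, Sod2, Prdx6 and Gstm6 are near 0 in old HA, and Prdx1 is at 211 to 241 CPM in every HA library.

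In HA, 5 of 36 members had an unadjusted p under 0.05 (13.9%), where 14.7% of all 8898 genes did, so the members were called no more often than genes in general. Of these 5, 2 were higher in old oocytes and 3 lower, and over all genes 4.28% were higher and 10.5% lower. No member and no gene of the table had an adjusted p under 0.05 in limma, while 0 members did in edgeR's quasi-likelihood test, 1 (Gsr) in its likelihood ratio test and 2 (Gsr and Glrx5) in DESeq2. The members' log2 differences ran from -2.39 to 5.44, with 18 above and 18 below 0, and the median was -0.02, against -0.14 over all genes. Both old pools lay above both young ones for 5 members and below for 7, or 13.9% and 19.4%, where 17.2% and 24.7% of all genes did. Rescaling each library to the same sum moved the median of all genes to -0.68 and that of the members to -0.59, and the split of calls over all genes from 381 higher and 930 lower to 112 and 1283. Rescaling to the median log2 ratio moved the members' median to 0.17, so its sign depended on the scaling. With quantile normalization the split was 266 and 240, and the members called were Gsr and Glrx5. Without old replicate 1 the number of members at an unadjusted p under 0.05 was 12 and their median -0.55, and without young replicate 1 or young replicate 2 the number was 3. The summed cumulus markers of the old HA libraries were also below those of the young ones, and the share of genes without a read was 2.89% and 4.11% for old HA and 0.112% and 0.865% for young HA. Their part in these differences was not tested.

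The HA level of Prdx1 was nearly the same in all pools, at 241 and 241 CPM in old and 230.3 and 211 CPM in young pools, a log2 difference of 0.13 with a 95% interval of -0.95 to 1.20. Txnrd1, the cytosolic selenoenzyme that recharges thioredoxin, was at 78.2 and 112 CPM in old and 109 and 88.7 CPM in young pools (-0.07, interval -1.52 to 1.38). Sod1 HA overlapped between the ages, at 30.0 and 22.5 CPM in old and 128 and 21.1 CPM in young pools, and young replicate 1 alone stood above the rest. Txn1, the cytosolic thioredoxin, had 2894 and 5 HA reads for old pools, and 678 and 535 for young pools. Nfe2l2, encoding NRF2, was at 2.47 and 133 CPM in old and 87.1 and 40.9 CPM in young HA libraries. For Txn1 and Nfe2l2 the old pools thus lay at both extremes, and no age difference could be read from them. Idh1, which makes cytosolic NADPH, was at 13.0 and 3.36 CPM in old and 30.1 and 29.5 CPM in young pools (-1.98, SE 1.37, adjusted p = 0.630, limma). Nqo1, the quinone reductase, had 0.335 to 10.7 CPM and Sesn3, a stress-induced regulator of growth signalling, 11.4 to 99.0 CPM, with overlapping ages.

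**Figure D3:**
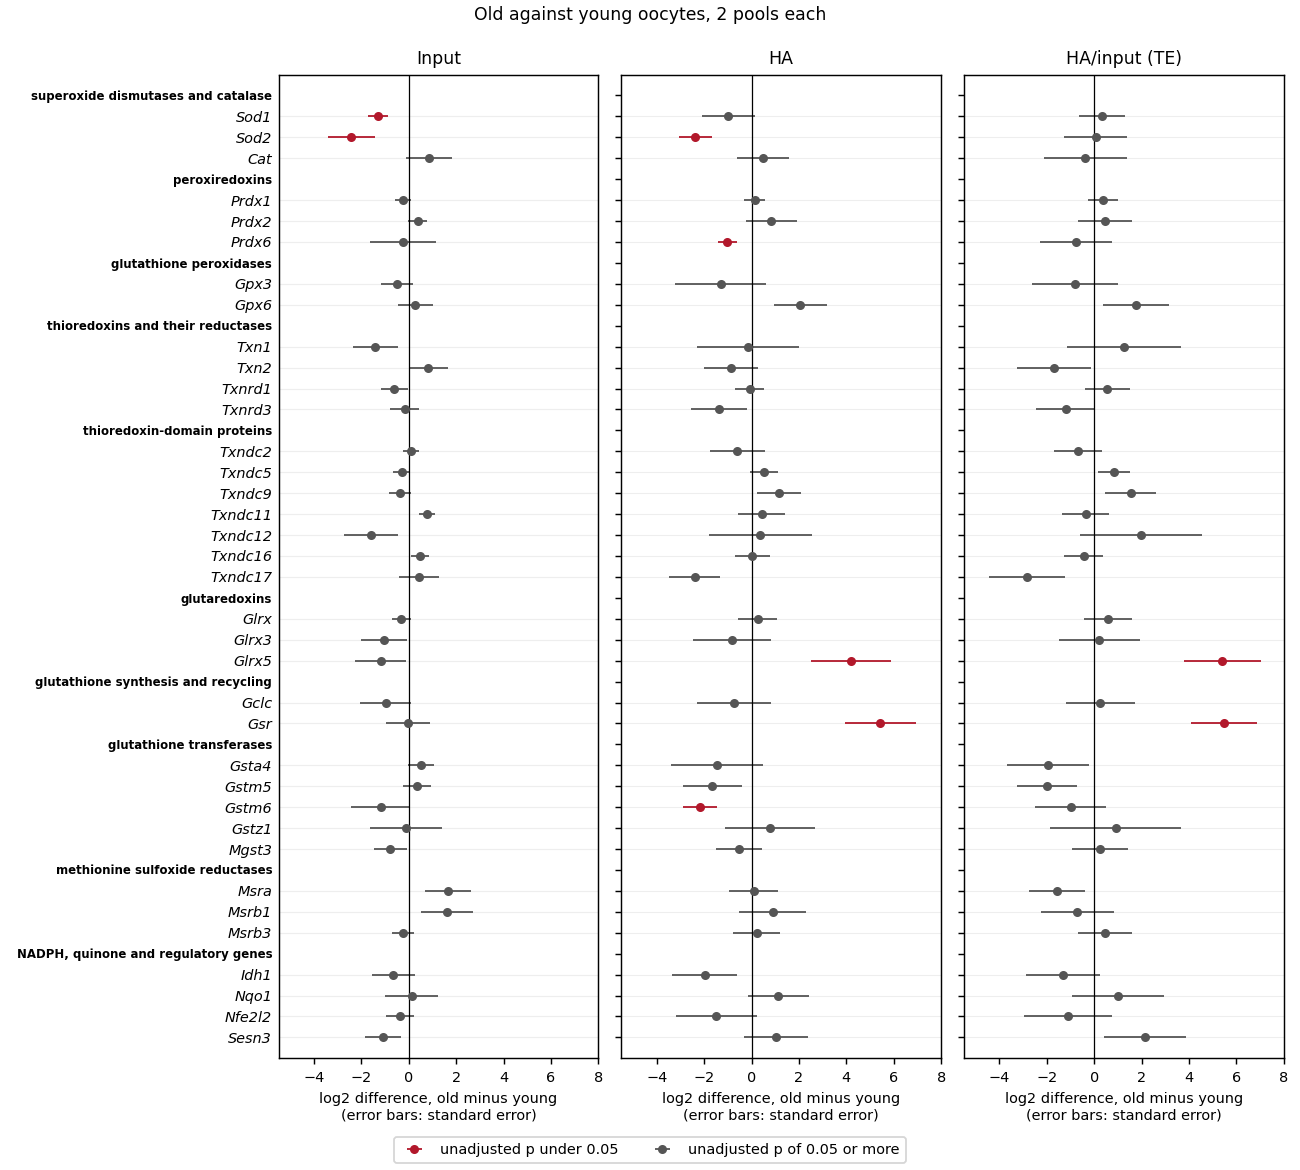
Log2 differences between old and young oocytes of the 36 members in input, HA and HA/input (TE), with standard errors from limma. Red points have an unadjusted p under 0.05, namely Sod1 and Sod2 in input, Sod2, Prdx6, Gstm6, Glrx5 and Gsr in HA, and Glrx5 and Gsr in HA/input. No point passed the adjustment over all genes.

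Translation efficiency (TE), the HA level over the input level of the same pool, was compared between ages to separate ribosome loading from mRNA amount. For Gsr, TE was 25.6 and 48.1 in old pools, but 0.0784 and 0.109 in young pools. With 1 CPM added to both levels, the log2 TE difference was 5.47 (SE 1.40, 95% interval 2.28 to 8.67, unadjusted p = 0.00390, adjusted p = 0.739, limma). For Glrx5, TE was 17.2 and 11.5 in old pools, but 0.409 and 0.0490 in young pools, a log2 difference of 5.40 (SE 1.63, 1.68 to 9.11, unadjusted p = 0.00964, adjusted p = 0.739, limma). In both genes HA exceeded input in each old pool and lay below it in each young pool. Their place in the HA table rests on the old HA libraries, fully for Gsr and at least in part for Glrx5. A higher old TE was thus favoured by the filter, and these tests are given as a description. The unadjusted p was above 0.05 for Gsr without young replicate 1 (5.07, SE 2.59) or young replicate 2 (5.88, SE 2.66), and for Glrx5 without young replicate 2 (4.46, SE 2.83). At 10 CPM in at least 2 libraries of both tables neither gene was kept, since their input was below that level.

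These 2 were the members with an unadjusted p under 0.05 in TE (5.56%, beside 6.49% of all 8537 genes), both higher in old oocytes, where 2.98% of all genes were higher and 3.51% lower. No member and no gene passed the adjustment in limma (smallest adjusted p = 0.739). The members' median log2 TE difference was 0.23, against -0.10 over all genes, and 20 of 36 were above 0. With libraries rescaled to the same sum, the median of the members was -0.15 and that of all genes -0.48, so the sign for the members depended on the scaling. The split of calls over all genes went from 254 higher and 300 lower to 107 and 470 with the same sum and to 338 and 245 with the median log2 ratio. Without old replicate 1 the members' median was -0.21, and the number of members at an unadjusted p under 0.05 was 9. That number was 7 without old replicate 2, 1 without young replicate 1 and 0 without young replicate 2. With 1 CPM added to both levels, both old pools lay above both young ones for 5 members and below for 4 (17.2% and 20.4% of all genes). Sod2, Prdx6 and Gstm6 depended on the scale, since their plain TE values did not overlap between the ages. Plain TE of Sod2 was 0.0244 and 0.0576 in old and 0.272 and 0.522 in young pools. Its log2 TE difference was 0.06 (interval -2.94 to 3.06) once 1 CPM was added to its low levels. Prdx6 had 0.00231 and 0 in old and 0.165 and 0.242 in young pools. Gstm6 had 0.215 and 0.00801 in old and 0.339 and 0.856 in young pools. With 1 CPM added, the ages overlapped in Sod2, Prdx6 and Gstm6.

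HA was then set against input over the 4 pools, to see which members were loaded on ribosomes in MII oocytes of either age. Prdx1 was above its input in every pool, and Txndc2, Txn2 and Sod1 were below theirs in every pool. The 2 tables were normalised separately, so the zero of this ratio is not a fixed point, and the median log2 difference of all genes was -0.56. Txndc2 (ENSMUSG00000050612.5, chromosome 17, 65637507 to 65642168) was at 82.3 and 10.3 CPM in old and 46.3 and 44.4 CPM in young HA libraries, against 149 to 206 CPM in input. Its log2 difference, HA minus input, was -2.27 (SE 0.51, adjusted p = 0.0706, limma). Txn2, the mitochondrial thioredoxin, was at 0.0950 and 3.55 CPM in old and 7.04 and 1.09 CPM in young HA libraries, against 11.6 to 61.2 CPM in input (-3.08, SE 0.78, adjusted p = 0.0824, limma). Sod1 (ENSMUSG00000022982.9, chromosome 16, 90220754 to 90226329) had TE values of 0.454 and 0.220 in old and 0.445 and 0.144 in young pools (-1.79, SE 0.48, adjusted p = 0.0896, limma). These 3 genes were lower in HA in all 4 pools, with no order between the ages in Txndc2 and Sod1, while Txn2 was lower in both old pools (TE of 0.00544 and 0.0580) than in both young ones (0.250 and 0.0939).

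Prdx1 (ENSMUSG00000028691.12, chromosome 4, 116685544 to 116700822) had TE values of 1.78 and 2.25 in old and 1.51 and 1.58 in young pools. The HA minus input difference was 0.81 (SE 0.31, unadjusted p = 0.0293, adjusted p = 0.166, limma). Its old pools lay above its young ones, by less than the error of the fit (TE difference 0.37, interval -1.05 to 1.79). The other members at an unadjusted p under 0.05 had a mean below their input, namely Prdx6 (-2.00), Gsta4 (-2.13), Gstm5 (-1.61) and Txndc17 (-1.92), with adjusted p from 0.166 to 0.185 (limma). Gsta4 rested on old replicate 2, at 0.333 CPM in HA against 11.6 CPM or more in the other pools, and its difference was -0.94 (SE 0.50) without it. Prdx6 rested on old replicate 1 in the same way, with -1.01 (SE 0.63) without it. Prdx1 and these 4 genes also had an unadjusted p above 0.05 without young replicate 1 or without young replicate 2. Txndc17 was above its input in young replicate 1, with a TE of 1.24, and below it in the other 3 pools. Gstm5 was below input in all 4 pools, with TE of 0.0792 and 0.284 in old and 0.893 and 0.466 in young pools.

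No member had an adjusted p under 0.05, where 1.52% of all 8537 genes did, and 3 members had an adjusted p under 0.1, where 7.40% did. At an unadjusted p under 0.05 there were 8 members (22.2%, beside 24.4% of all genes), of which 1 was higher and 7 were lower in HA, where 5.77% and 18.6% of all genes were higher and lower. HA was above input in all 4 pools for Prdx1, Txnrd1 and Gclc, and below input in all 4 for 9 members, which was 8.33% and 25.0% beside 8.06% and 24.1% of all genes. The median of the members was -0.36. With each pool's log2 ratios centred on their median, it was 0.10, 3 members were higher (Prdx1, Txnrd1 and Gsr) and 3 lower (Txn2, Sod1 and Txndc2) at an unadjusted p under 0.05, and over all genes 998 were higher and 689 lower, instead of 493 and 1588. In the young pools alone, 2 of the 8 members kept an unadjusted p under 0.05, Sod1 (-1.95) and Txndc2 (-1.92). In the old pools alone, 8 of the 36 members had an unadjusted p under 0.05 (limma). Without old replicate 1, 12 members had an adjusted p under 0.05, and without old replicate 2, 6 did. Without young replicate 1, 3 members had an unadjusted p under 0.05, and without young replicate 2, 1 did.

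**Figure D4:**
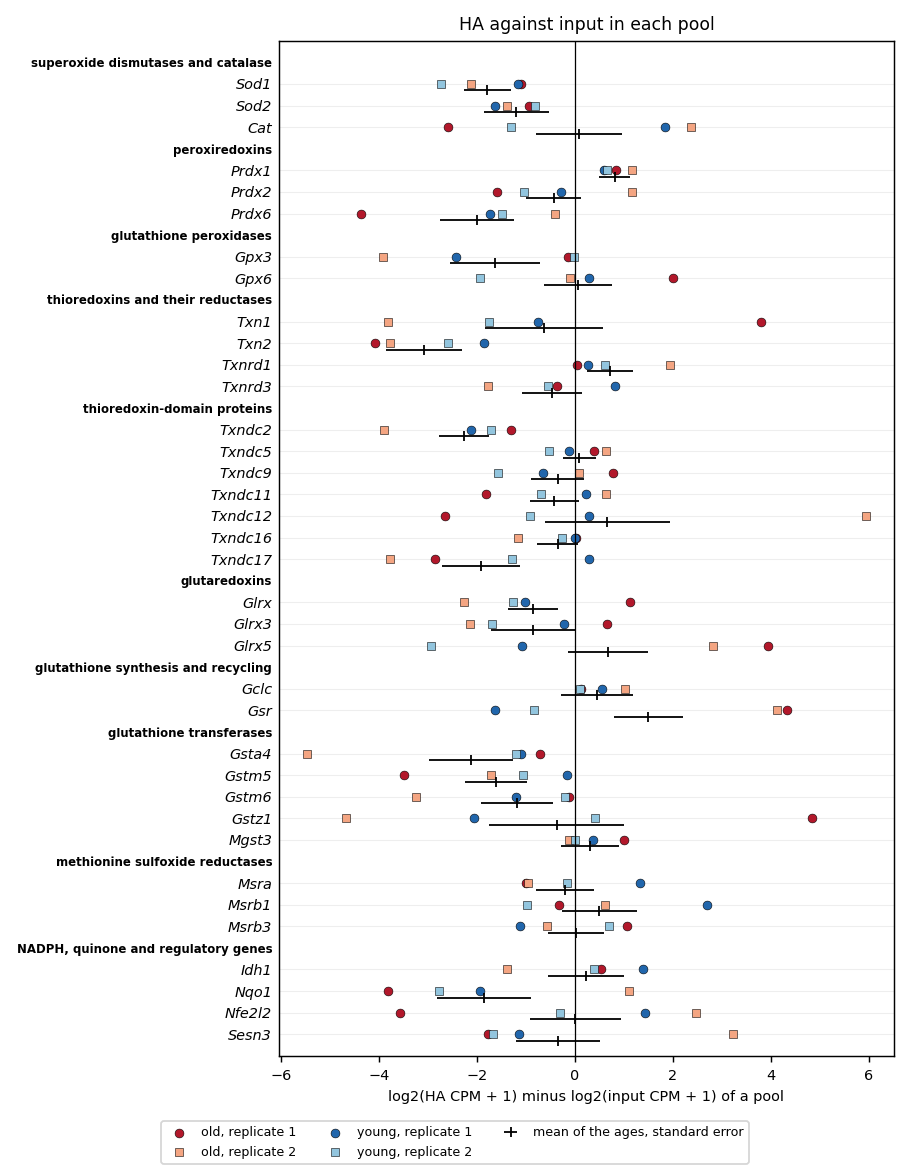
Log2 HA against input, log2(HA CPM + 1) minus log2(input CPM + 1), of the 36 members in each pool. Black marks below the points are the mean of both ages with its standard error from limma. All 4 pools of Prdx1 lie above 0 and all 4 of Txndc2, Txn2 and Sod1 below 0, and the old and young pools of Gsr and Glrx5 lie on opposite sides of 0.

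The pools of an age differed from each other more in old than in young oocytes. Between the 2 old HA libraries, 19 of 36 members (52.8%) differed by more than 2 on the log2 scale, as did 34.8% of all genes, and the median difference was 2.05 for the members and 1.29 for all genes. Between the 2 young HA libraries it was 0.91 for the members and 0.77 for all genes, with 5 members over 2. In input, the median was 1.16 for members and 0.77 for all genes in old pools (10 members over 2), and 0.61 and 0.59 in young pools (0 members over 2). The widest gaps in old HA were those of Txndc12, with 1 and 1817 reads, and Txn1, with 2894 and 5 reads, both picked here after their values were seen, as was Gstz1. Gstz1 had 1195 and 3 HA reads and 1 and 1371 input reads in the old pools, so that its HA and input went opposite ways in the same pool, and part of its exons is shared with Pomt2. Within 1 log2 unit in each age, in input and in HA, stayed 4 members, Prdx1, Sod2, Txndc9 and Txndc17. Of these, Sod2 (0.0238 and 0.111 CPM) and Txndc17 (1.31 and 0.222 CPM) were low in old HA, where the log2(CPM + 1) scale compresses differences.

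**Figure D5:**
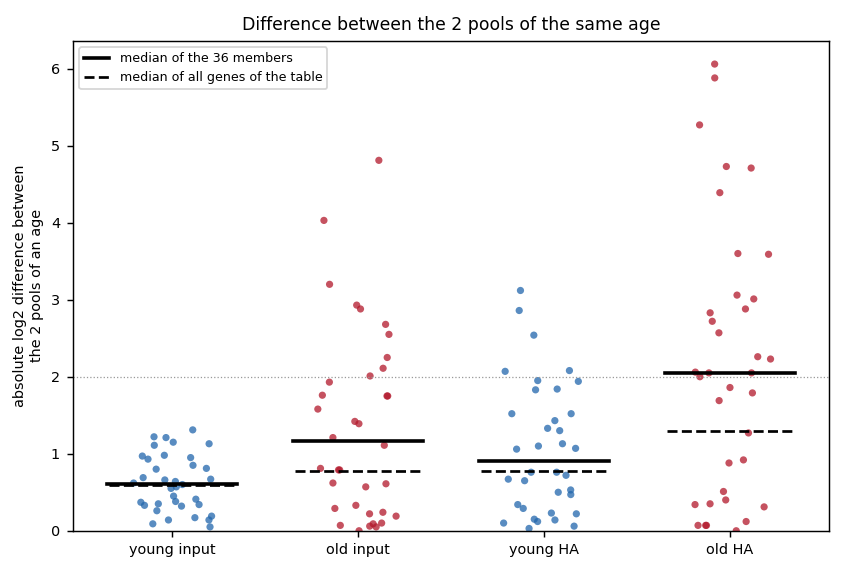
Absolute log2 difference between the 2 pools of the same age for each member (points), with the median of the 36 members (solid line) and of all genes of the table (dashed line). The solid line is at 2.05 for old HA and at 0.91, 1.16 and 0.61 for young HA, old input and young input.

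CPEB1 binds the cytoplasmic polyadenylation element (CPE), a U-rich motif in 3′-UTRs that controls poly(A) tails and translation in maturing oocytes, and the study is concerned with its part in aging. The longest annotated 3′-UTR of each member was searched for TTTTAT and TTTTAAT on the transcript strand. A CPE was found in 20 of 36 members (55.6%), against 70.7% of 7930 genes in both tables with an annotated 3′-UTR, and the median 3′-UTR was 858 bases in members and 1332 in all. Within the last 100 bases, close to the poly(A) site, 7 members held one (19.4%, against 21.5% of all genes). These 7 are shown with 30 bases around the CPE closest to the 3′ end, 5′ to 3′ on the transcript strand and with the CPE in capitals, to show the letters searched for in their place, with positions in GRCm38.
Gsr (chr8:33698086-33698115, plus strand): tttgttttgttTTTTATgaaaactgttcca
Nfe2l2 (chr2:75675569-75675598, minus strand): ggaaatgacatTTTTATattaaattgttta
Txnrd1 (chr10:82897646-82897675, plus strand): attccatgtatTTTTATtacaatttttctg
Idh1 (chr1:65158635-65158664, minus strand): taaactgttaaTTTTAATtaaaatgaagta
Nqo1 (chr8:107388239-107388268, minus strand): tttctttttttTTTTAATcgaaataaatga
Sesn3 (chr9:14333059-14333088, plus strand): attagtaggaaTTTTATtggttcaataaaa
Txndc9 (chr1:37987409-37987438, minus strand): tttgtgattgaTTTTATcataacgtgattc
The Gsr 3′-UTR held 7 CPEs in 868 bases, the last one 67 bases from the end. Glrx5 held 1 in 2456 bases, 174 bases from the end, Sod2 held 16 with the last 547 bases from the end, and Prdx1 held 1, 983 bases from the end. Of the 7 members lower in HA at an unadjusted p under 0.05, 6 had no CPE (all but Prdx6), among them Sod1 with a 3′-UTR of 72 bases and Txndc2 with 21 bases. Over all genes, 37.4% of 1480 genes lower in HA and 16.1% of 484 genes higher in HA had no CPE. The median log2 HA against input was -1.03 for the 16 members without a CPE, -0.35 for the 13 with a CPE further from the end and 0.00 for the 7 with a CPE in the last 100 bases, and over all genes it was -0.79, -0.49 and -0.33 in the same order. Genes without a CPE had shorter 3′-UTRs, with a median of 622 bases in members and 553 in all genes, and the part of length in these values was not tested.

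The antioxidant response element, the site through which NRF2 acts, was searched for as TGACNNNGC on both strands, from 250 bases before to 50 bases after each RefSeq transcription start (GRCm38.p6). Of the 36 members, 31 had such a window and 8 of those held the motif (25.8%, against 17.1% of 6386 genes in both tables). The members with it were Nfe2l2, Gstm5, Prdx1, Txnrd1, Txndc5, Txndc11, Sod1 and Txndc2. Among them, Gstm5, Sod1 and Txndc2 were below their input in every pool. For Prdx1 and Txnrd1, both above their input in every pool, and for Nfe2l2, the regulator of the pathway, the windows are shown as 30 bases read in the direction of the motif, which is in capitals.
Prdx1 (chr4:116685456-116685485, motif on the minus strand): cctacgggggaTGACTCAGCgctttccctg
Txnrd1 (chr10:82859104-82859133, motif on the minus strand): ccgtgtcagaaTGACAAAGCaaaaatccag
Nfe2l2 (chr2:75704884-75704913, motif on the minus strand): tcagcccaccTGACTCCGCcatgccccgga
The motif lay at position -133 relative to the start in Prdx1, at -92 from 1 of the starts of Txnrd1 and at -240 in Nfe2l2. A match of these letters is a description of the sequence.

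Members of the families that were in 1 table alone extend the picture for single genes. Prdx3, the mitochondrial peroxiredoxin, was in the HA table, where old pools gave 0 and 1 reads, and young pools 301 and 1245, so that it could enter the table through the young libraries alone. As a description, its young over old ratio was 797 (95% counting interval 143 to 31507). Like Sod2, Gstm6 and Prdx6, it was at or under the floor in both old HA libraries. Hmox1, heme oxygenase, gave 1 and 117 HA reads for old pools and 106 and 0 for young pools, and Sesn1 gave 4 and 64 against 342 and 9, with overlapping ages in both. In the input table, Gclm, the modifier subunit of glutathione synthesis, was at 0.515 and 1.12 CPM in old and 1.10 and 0.447 CPM in young pools, and Gpx7, Mgst1, Txndc15 and the pseudogene Prdx6-ps2 each had a pool at 5 reads or fewer. Reads of Prdx6 and this pseudogene may not have been separable.

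Around the members, 6 lists of related genes were counted, namely NRF2 partners, NADPH supply, cysteine supply and glutathione turnover, selenoproteins, disulfide formation in the endoplasmic reticulum, and iron and other redox proteins. In input, 2 of 81 tested genes were higher and 2 lower in old oocytes at an unadjusted p under 0.05 (limma), beside 2.71% higher and 3.48% lower over all genes. In HA, 4 of 73 were higher and 10 lower, beside 4.28% and 10.5%, and in TE 0 of 71 were higher and 3 lower, beside 2.98% and 3.51%. The lists were thus close to genes in general, and none of their genes passed the adjustment. In HA the lower genes included Idh3b and Pgd, dehydrogenases of the citric acid cycle and the pentose phosphate pathway. Idh3b was listed with 0 CPM in both old and with 2.21 and 2.63 CPM in young libraries. Pgd had 0.238 and 0.0370 CPM in old and 5.36 and 2.87 CPM in young libraries. The place of both genes in the HA table rests on the young libraries, so a lower old level was fixed by the filter. Mt1, a metallothionein, was at 1.64 and 2.88 CPM in old and 55.3 and 26.3 CPM in young HA libraries, with input of 32.7 to 60.3 CPM in all pools. P4hb and Pdia4, disulfide isomerases, were higher in old HA libraries, P4hb at 215 and 215 CPM against 113 and 55.8 CPM and Pdia4 at 97.4 and 410.2 CPM against 36.6 and 38.0 CPM.

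Against input, HA was higher for 7 and lower for 12 of 71 genes of these lists at an unadjusted p under 0.05, beside 5.77% higher and 18.6% lower over all genes. Of the 4 higher and 2 lower genes for cysteine supply and glutathione turnover, Slc7a11 and Slc3a2, the subunits of the cystine transporter, and Ggct, which acts on gamma-glutamyl products of glutathione breakdown, were among the higher. Slc7a11 was at 347 to 485 CPM in input and at 734 and 1549 CPM in old and 678 and 633 CPM in young HA libraries, which differed from input by 0.91 on the log2 scale (SE 0.22, adjusted p = 0.0770, limma). Ggct was at 278 to 684 CPM in input and at 647 to 1788 CPM in HA (1.02, SE 0.21, adjusted p = 0.0528, limma). Mat2b, a regulator of methionine adenosyltransferase, followed with 0.93 (SE 0.19, adjusted p = 0.0537, limma). Of 8 NRF2 partners tested, 4 were lower in HA at an unadjusted p under 0.05 (Cul3, Sqstm1, Rbx1 and Mafg), with log2 differences from -3.50 to -1.51, and lower is also the more frequent direction over all genes. Sqstm1, the autophagy receptor, was at 8.41 to 42.3 CPM in input and at 0.0238 and 0.185 CPM in old and 4.82 and 1.29 CPM in young HA libraries.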

How the data were processed

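RNA from 4 pools of MII oocytes was sequenced as HA and input libraries, single-end, after NuGEN amplification with random and poly(T) primers. The authors trimmed reads (Trimmomatic 0.36), aligned them to mm10 (HISAT2), counted them over GENCODE genes without regard to strand (HTSeq) and scaled them in edgeR. The deposited signal values are CPM scaled by TMM, separately for HA and input, and whole reads were recovered from them for 100.0% of values (tolerance 0.1 reads). The stated filter of 10 CPM in 2 libraries held for 6775 of 10530 input and 5642 of 8898 HA genes. The reads behind each library and its floor are given in the report. Tests on log2(CPM + 1) were fitted with limma 3.58.1 (R 4.3.3, trended variance, Benjamini-Hochberg adjustment over all genes, two-sided), for old against young in input, HA and HA/input, and for HA against input with both fractions of a pool paired, since they share a lysate. Same-numbered old and young pools were not paired: their deviations correlated at 0.0269 in input, 0.0786 in HA and 0.0108 in HA/input. Recovered reads were tested with edgeR 4.0.16 and DESeq2 1.42.0. Scripts were tested on simulated data. Positions, exon lengths and 3′-UTRs came from GENCODE on GRCm38 (99.9% of input and 99.8% of HA identifiers matched) and promoters from RefSeq. Genes named had an unadjusted p under 0.05, were among the 10 most abundant per kilobase in input or belonged to a list of core enzymes. The members and lists were chosen with earlier results of these data known. Alternatives were pseudocounts of 0.1 and 5 CPM, filters on low values, other scalings, no variance trend, a replicate block, the count tests, each age alone and leaving out each pool.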

Additional observations from a re-analysis of the deposited data

Results flagged for a closer look

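The age difference in HA over input was larger than the spread between pools for Gsr and Glrx5 before adjustment for the number of genes. For Gsr, log2 HA over input was higher in old than in young oocytes by 5.47 (unadjusted p = 0.00390, adjusted p = 0.739, limma), with HA above input in both old pools and below it in both young pools. For Glrx5 the difference was 5.40 (unadjusted p = 0.00964, adjusted p = 0.739, limma), with the same arrangement of the 4 pools. Neither passed the adjustment over all genes. The place of these genes in the HA table rests on the old HA libraries, fully for Gsr and at least in part for Glrx5. A higher old value was thus favoured by the filter. Over the alternatives, the adjusted p ran from 0.0709 to 1.000 for Gsr and from 0.102 to 1.000 for Glrx5, the lowest in each case without old replicate 1.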

How the results depend on the processing

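The 17 single-gene differences with an unadjusted p under 0.05 among the members kept their direction under every alternative run for them, and other named genes were not recomputed one by one. Of these 245 alternatives, 184 kept the side of the unadjusted threshold and 61 lost it. In input, 1 member had an unadjusted p under 0.05 with a mean of at least 10 CPM, with 10 CPM in 2 libraries, with quantile normalization, without the variance trend and in edgeR's quasi-likelihood test, and 0 to 9 did when each pool was left out. The members' median was -0.43 at the same sum, -0.34 after quantile normalization and -0.37 to -0.08 without each pool. In HA, the number was 2 with a mean of at least 10 CPM, with 10 CPM in 2 libraries and after quantile normalization, and 3 to 12 without each pool. The median was -0.59 at the same sum and -0.55 to 0.08 without each pool. The number with an adjusted p under 0.05 was 2 in DESeq2 and 1 in the likelihood ratio test of edgeR. In TE, the number was 0 under both filters and 0 to 9 without each pool, and the median was -0.15 at the same sum and -0.21 to 0.36 without each pool. For HA against input, the number was 5 under both filters, 2 in young pools alone and 1 to 15 without each pool, and with an adjusted p it was 1 under both filters and after quantile normalization and 0 to 12 without each pool. The centred median was 0.10. The filters test fewer members, and otherwise the cause was not tested. Fits without a pool assume that the lone pool varies like the other age. With a replicate block, genes at an unadjusted p under 0.05 went from 651 to 678 in input, 1311 to 1383 in HA and 554 to 608 in TE, and genes past the adjustment from 0 to 9 in HA and from 0 to 5 in TE. Members numbered 2, 4 and 2, and Prdx6 in HA (-1.02, SE 0.50) was the call lost. At 1 to 3 reads, as in old HA for Sod2, Prdx6 and Gstm6, the depth limits the size of a ratio.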
